A study of Mus musculus with 7 samples.

Results

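The genes described here are 37 genes of mitophagy, autophagy and the lysosome, measured in hearts of mice made to lack Brg1 and Brm. These are the alternative ATPases that drive SWI/SNF complexes to move nucleosomes. Autophagy encloses cell contents in a double membrane and delivers them to the lysosome, and mitophagy is its selective form for damaged mitochondria. A mitochondrion is marked either by ubiquitin, in a route that the kinase PINK1 starts, or by receptor proteins in its outer membrane, and lipid-bound Atg8 proteins on the growing membrane then hold it through receptors or adaptors. Heart muscle is dense with mitochondria and depends on this clearance. The members were the genes on a fixed list of 37 names that occur as a gene name of a non-control probe in the scanner files, and each was read on its brightest probe. All 37 were found, all 37 had a probe above the filter on dim signals, and they are 37 of 22839 genes tested. No member was chosen for its values, but the list was proposed with earlier results of these data known.

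Messenger RNA was measured on 7 one-colour Agilent arrays of 60-base probes, 3 from wild type and 4 from knockout hearts of adult female mice. The knockout animals were null for Brm (gene Smarca2) and lost Brg1 (gene Smarca4) when tamoxifen activated MHC Cre-ERT, a recombinase that by its name is driven by a myosin heavy chain promoter, which is active in muscle cells. The labels mark the wild type hearts as NTg and the knockout hearts as Tg, each with tamoxifen. They do not say whether the wild type animals had Brm, whether they carried the Cre, or whether animals were pooled. The design text speaks of 4 wild type samples, and the 3 described here were analysed. The labels give cardiomyocytes as the cell type but heart as the source, and they name a kit for RNA from animal tissue with no step that isolates cells. In the order used for single arrays, the wild type group holds Wild Type_181, then Wild Type_183, then Wild Type_189, and the knockout group holds Mutant_175, Mutant_182, Mutant_187 and Mutant_188. Beyond these numbers the labels do not tie a sample to an animal of its own, so a p-value here reflects only how these arrays vary, which may be technical.

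A value for 1 array is its relative signal, the processed signal divided by the array's own 75th percentile. Relative signals of different genes come from different probes and are not compared with each other. Log2 fold changes are the knockout mean minus the wild type mean of the log2 relative signal, with its standard error (SE) and an adjusted p from limma. Called means an adjusted p under 0.05 over all genes tested.

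Smarca4 checked the labels. Its relative signal was 32.8 to 34.7 in wild type and 5.87 to 14.9 in knockout, lowest in Mutant_175. Part of the Smarca4 signal thus remained on every knockout array. The 12 cardiomyocyte markers were all well above background on every array, but their summed relative signal was 5809 to 6315 in wild type and 2665 to 3514 in knockout, and 10 of the 12 were called lower. Of 14 macrophage markers 8 were called higher and 1 lower, and their summed signal was 123 to 134 in wild type, 140.2 in Mutant_175 and from 209 to 267 in Mutant_182, Mutant_187 and Mutant_188. Of 10 fibroblast markers 8 were called higher and 0 lower, with summed signals of 312 to 343 in wild type and 637 to 879 in knockout. Of 8 markers of smooth muscle cells and pericytes 3 were called higher and 1 lower, with summed signals of 102 to 120.0 in wild type and 444 to 536 in knockout. Most of this knockout sum was Acta2 alone, which read 33.4 to 44.8 in wild type and 381 to 465 in knockout. The sum therefore does not describe the other markers of that list. Of 8 endothelial markers 0 were called higher and 2 lower. In such tissue RNA a change in the share of a cell type and a change in the RNA per cell cannot be told apart. The part of cell composition in the results on the 37 genes was not tested. The wild type arrays lie in row 1 of the slide and the knockout arrays in row 2, so row and genotype cannot be told apart.

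The scale decides many directions. Dividing by the 75th percentile removes any difference in total messenger RNA. Scaling to 7 spike-in RNA probes instead added 0.57 to the log2 fold changes and moved the median of all genes from -0.12 to 0.44. "Higher" and "lower" thus refer to a level against the 75th percentile of the same array, and the value scaled to spike-in RNA is given where it ends a call or makes one.

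Of the 37 genes, 3 were called higher and 13 lower in knockout, and 21 were not called. The members called made up 43.2%, against 42.2% of all genes tested, so the share called is near the background. The share called lower was 35.1% against 25.8% of all genes, and the share called higher 8.11% against 16.4%. The median log2 fold change of the members was -0.24 and that of all genes -0.12. Groups of arrays did not overlap for 20 members, or 54.1%, against 51.3% of all genes. Scaled to spike-in RNA the members' median was 0.32 and that of all genes 0.44. A change of at least 2-fold was called for 7 members, 1 higher and 6 lower. Over all 22839 genes it was called for 1941 higher and 2280 lower, a share near that of the members. Gabarapl2 rose, and Pink1, Rhot2, Ctsd, Chchd3, Ulk1 and Map1lc3a fell. Scaled to spike-in RNA these 7 genes kept their call and direction, as did Gabarap and Atg7. Bnip3, Bnip3l, Becn1 and Optn, which are among the 21 not called above, were called higher on that scale. The background there was 37.3% of genes called higher and 7.45% called lower.

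**Figure D1:**
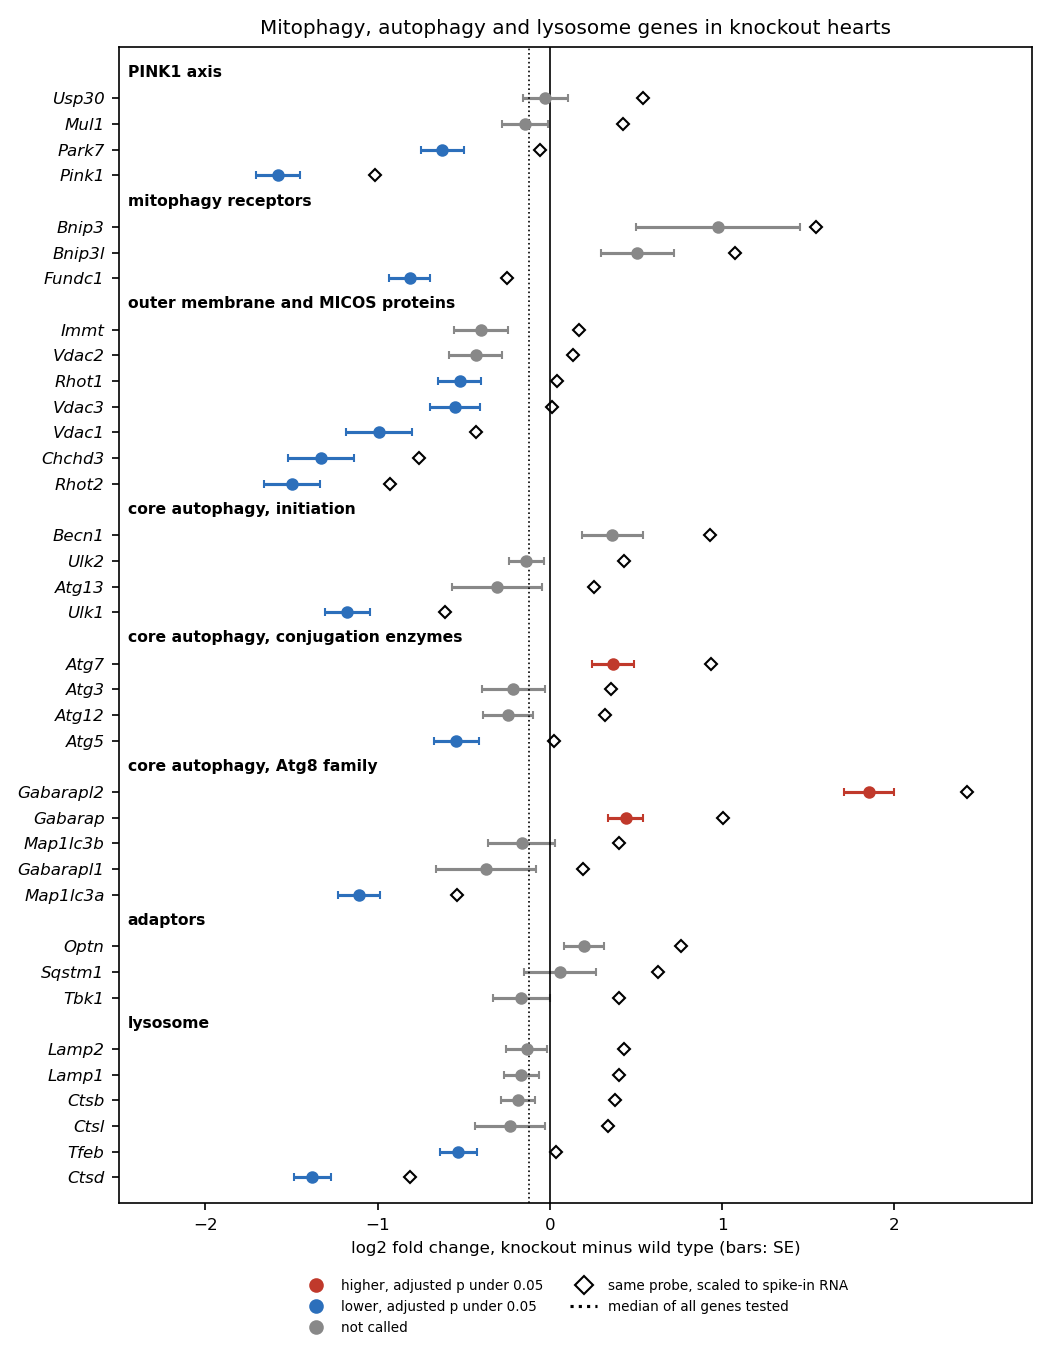
Log2 fold change (knockout minus wild type, horizontal axis) of 36 of the genes by role, with SE bars from limma over 3 wild type and 4 knockout arrays. Filled points are coloured by call, open diamonds show the same genes scaled to spike-in RNA, and the dotted line is the median of all genes at -0.12. Gabarapl2 lies at 1.85 on the right and Pink1 at -1.58 on the left, and every diamond lies about the same distance to the right of its point.

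Before the values by role, some of the sequences behind them are shown. Some probes are split over a wider stretch of the genome than their 60 bases and so span at least 1 intron, which means that they read spliced RNA. These 3 are shown because they are probes other than the brightest for genes that fell, in positions of mouse build mm9. They were thus picked by the direction of their genes. The Pink1 probe is spread over 1970 bases of chromosome 4 (137873943 to 137875912), the Rhot2 probe over 840 bases of chromosome 17 (25980059 to 25980898) and the Ulk1 probe over a shorter stretch of chromosome 5 (111216232 to 111216623).
Pink1 second probe: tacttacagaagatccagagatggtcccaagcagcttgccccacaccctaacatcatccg
Rhot2 other probe: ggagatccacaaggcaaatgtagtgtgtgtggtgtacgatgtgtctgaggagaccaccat
Ulk1 second probe: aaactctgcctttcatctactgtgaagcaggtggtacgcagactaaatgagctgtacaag
They gave log2 fold changes of -1.59, -1.12 and -0.76, each called lower (adjusted p = 0.00059, 0.0017 and 0.027 over all kept probes, limma). The brightest probes of these genes gave -1.58, -1.49 and -1.17.

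Promoter sequences were searched for the E-box CACGTG, the core of the CLEAR element that Tfeb and its relatives bind in lysosome and autophagy genes. RefSeq promoters (build GRCm38.p6, 250 bases before to 50 after a start site) were found for 29 of the 37 genes, with 32 promoters in all. The E-box, which reads the same on both strands, was in 10 of these 32 promoters (31.3%), 1 each of Atg3, Atg5, Atg7, Bnip3, Chchd3, Ctsd, Ctsl, Lamp1, Mul1 and Tbk1. It was in 7.15% of all 32851 promoters. The longer form TCACGTGA, which contains the E-box and also reads the same on both strands, was in the promoters of Ctsd and Atg3 and in 0.974% of all promoters. The 110 bases before the start site are shown for 3 of them because the same letters stand before genes with different calls, with each E-box in capitals. The Ctsd stretch is chr7:142387828-142387937 on the minus strand, the Lamp1 stretch chr8:13159051-13159160 on the plus strand and the Atg3 stretch chr16:45158719-45158828 on the plus strand.
Ctsd: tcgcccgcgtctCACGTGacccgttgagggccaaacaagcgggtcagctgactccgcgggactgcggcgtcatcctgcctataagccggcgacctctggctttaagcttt
Lamp1: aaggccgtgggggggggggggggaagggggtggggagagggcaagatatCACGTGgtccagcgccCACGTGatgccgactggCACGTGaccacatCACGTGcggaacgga
Atg3: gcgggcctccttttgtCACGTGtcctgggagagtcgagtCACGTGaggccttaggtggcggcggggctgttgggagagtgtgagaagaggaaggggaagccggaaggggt
All 4 E-boxes of the Lamp1 promoter lie within this stretch. Over the whole 300 bases, 0.0244% of all promoters hold at least 4. Of the 10 genes with an E-box, Ctsd, Chchd3 and Atg5 were called lower, Atg7 was called higher, and Lamp1, Atg3, Bnip3, Ctsl, Mul1 and Tbk1 were not called. A match of letters is a description of the sequence and does not show that a factor binds there.

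In the ubiquitin-dependent branch, the kinase transcript fell. Pink1 encodes the kinase that builds up on damaged mitochondria and phosphorylates ubiquitin there. Its relative signal was 162, 167 and 157 in wild type and 53.2, 49.4, 50.03 and 65.2 in knockout (probe at chromosome 4, 137869360 to 137869419, mm9). All 4 knockout arrays lay far below the 3 wild type arrays. Pink1 fell by 1.58 on the log2 scale (SE 0.13, adjusted p = 0.00014, n = 3 and 4, limma), a 2.99-fold change, and by 1.01 when scaled to spike-in RNA (adjusted p = 0.0013, limma). Park7 (DJ-1, a protein that protects against oxidative stress) read 66.9, 79.0 and 81.0 in wild type and 52.8, 44.5, 51.2 and 47.6 in knockout. The groups did not overlap and Park7 fell by 0.62 (SE 0.12, adjusted p = 0.0058, limma), but by 0.06 when scaled to spike-in RNA (adjusted p = 0.81, limma). Usp30, a deubiquitinase of mitochondria, and Mul1, a ubiquitin ligase of the outer membrane, were not called, at -0.03 (SE 0.13) and -0.14 (SE 0.13). The 4 knockout arrays spanned the wild type values in both genes.

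Among the receptors that tie mitochondria directly to Atg8 proteins, the direction differed by gene. Fundc1, a receptor linked to mitophagy in low oxygen, read 6.58, 6.20 and 6.47 in wild type and 3.43, 3.53, 3.42 and 4.27 in knockout (chromosome X, 17133867 to 17133926, mm9). Every knockout array was lower, and Fundc1 fell by 0.81 (SE 0.12, adjusted p = 0.0017, limma), and of -0.25 scaled to spike-in RNA (adjusted p = 0.25, limma). Bnip3, which is induced by low oxygen and can also promote cell death, read 87.6, 103 and 92.0 in wild type and 441, 166, 87.9 and 183.1 in knockout. In Bnip3 the knockout arrays ranged from the wild type level in Mutant_187 to far above it in Mutant_175. The mean log2 difference of 0.98 (SE 0.48, adjusted p = 0.14, limma) was not called. Its knockout SD of 0.96 on the log2 scale was above that of 96.2% of all genes, while its wild type SD was 0.12. Bnip3l (NIX), its close relative, which clears mitochondria from maturing red cells, read 15.03, 13.97 and 13.6 in wild type and 28.1, 21.3, 14.7 and 18.7 in knockout. Mutant_175 was again highest and Mutant_187 again lay within the wild type range. The log2 fold change of Bnip3l was 0.51 (SE 0.21, adjusted p = 0.091, limma), and its second probe gave 0.56. Without Mutant_187 Bnip3 was called higher at 1.34 (adjusted p = 0.030, limma) and Bnip3l at 0.66 (adjusted p = 0.024, limma). Without Mutant_175 the values were 0.56 and 0.35 and neither was called. Scaled to spike-in RNA both were called higher, at 1.54 (adjusted p = 0.017, limma) and 1.07 (adjusted p = 0.0083, limma). Array weights also called both higher. Bnip3l alone was called higher after quantile normalization, with or without normexp, and with the 75th percentile taken over probes detected on every array.

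Genes of outer membrane proteins that are marked with ubiquitin in mitophagy, and of the complex that shapes the inner membrane folds (MICOS), were mostly lower. Of the 7, 5 were called lower and 0 higher, or 71.4% lower against 25.8% of all genes, with a median of -0.55 against -0.12, and of 0.02 against 0.44 scaled to spike-in RNA. Rhot2 (Miro2, a GTPase that couples mitochondria to transport motors) read 49.3, 59.1 and 51.9 in wild type and 24.5, 16.7, 18.3 and 17.1 in knockout (chromosome 17, 25975786 to 25975845, mm9). The groups were well apart, and Rhot2 fell by 1.49 (SE 0.16, adjusted p = 0.00044, limma), a 2.82-fold change. Its relative Rhot1 (Miro1) read 12.0, 12.4 and 12.5 in wild type and 10.3, 7.98, 8.20 and 8.12 in knockout. That fall was smaller, by 0.52 (SE 0.13, adjusted p = 0.013, limma). It was not called without Wild Type_183 or without Wild Type_189, and it stood at 0.04 scaled to spike-in RNA.

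Chchd3 (MIC19, a MICOS subunit) read 71.5, 75.3 and 72.3 in wild type and 37.6, 28.7, 21.2 and 31.3 in knockout (chromosome 6, 32742239 to 32742298, mm9). It fell by 1.33 (SE 0.19, adjusted p = 0.0015, limma) with no overlap of the groups, and a second bright probe gave -1.13. Another 2 dim Chchd3 probes, at chromosome 6, 32801446 to 32802116, gave 0.43 and -0.27 and were not called. Immt (mitofilin, the central MICOS subunit) read 37.2, 35.1 and 38.7 in wild type and 36.0, 26.0, 24.0 and 27.6 in knockout. Only Mutant_175 reached the wild type range, and the mean log2 difference of -0.40 (SE 0.16, adjusted p = 0.076, limma) was not called. A second Immt probe was called lower at -0.64, while another, dim probe gave 0.49 (adjusted p = 0.054 over all kept probes, limma). The probes of Immt thus disagreed in sign.

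The 3 voltage-dependent anion channels, the main pores of the outer membrane, were all lower in the mean, although Vdac2 (0.14) and Vdac3 (0.02) were not when scaled to spike-in RNA. Vdac1 read 309.7, 324 and 306 in wild type and 214, 156, 119.6 and 153 in knockout, with no overlap, and fell by 0.99 on the log2 scale (SE 0.19, adjusted p = 0.0054, limma). Scaled to spike-in RNA it was -0.43 and not called. Vdac3 read 152, 148 and 154 in wild type and 128, 97.1, 86.8 and 106 in knockout, a fall of 0.55 (SE 0.15, adjusted p = 0.020, limma). The Vdac3 call was lost after quantile normalization, without any 1 of the wild type arrays and without Mutant_182, and the value was 0.02 scaled to spike-in RNA. Vdac2 read 172, 189.6 and 171 in wild type and 168, 127, 111 and 127 in knockout. Its groups did not overlap, but Mutant_175 lay close below the lowest wild type value and -0.43 (SE 0.16, adjusted p = 0.059, limma) was not called. Without Mutant_175 Vdac2 was called lower at -0.55 (adjusted p = 0.0066, limma) and Immt at -0.52 (adjusted p = 0.0072, limma).

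**Figure D2:**
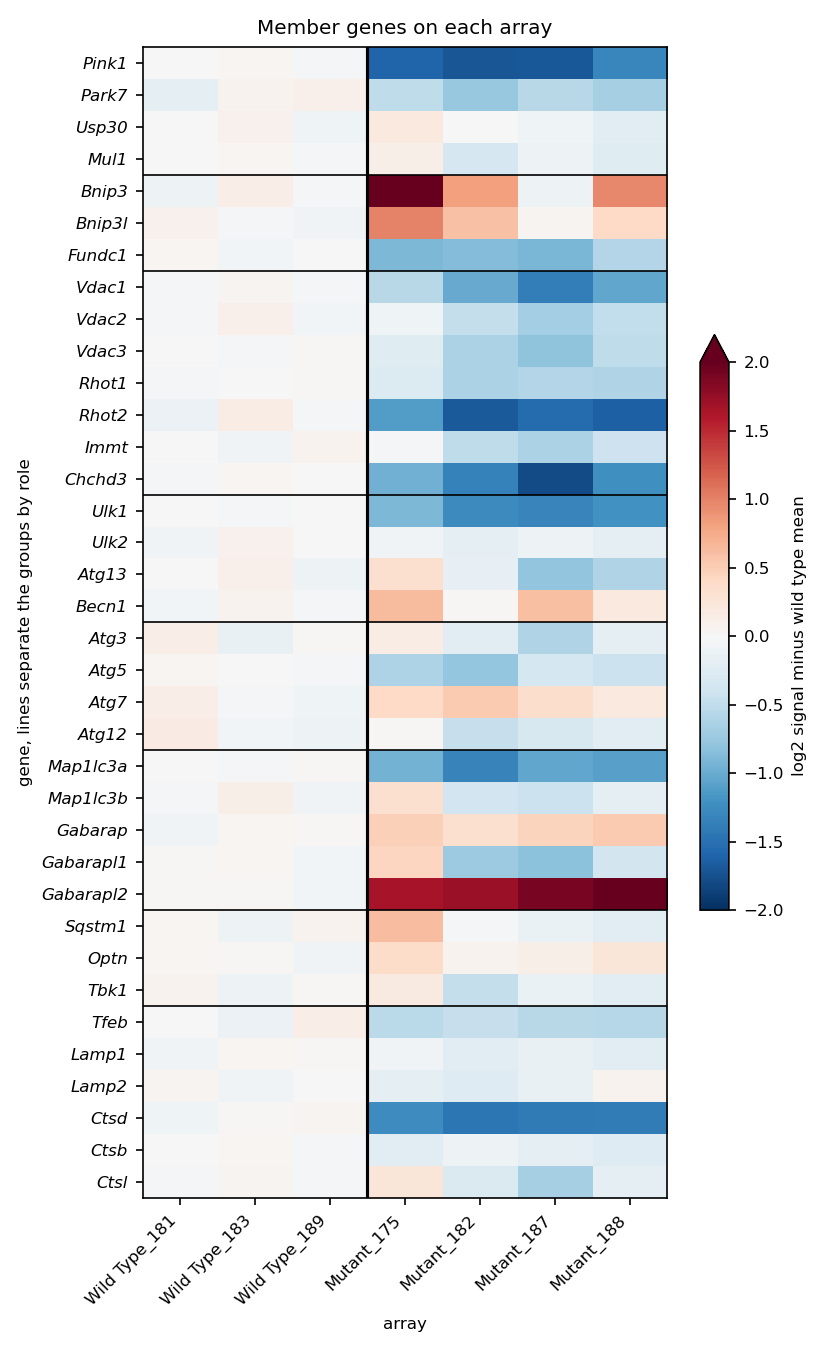
Log2 relative signal of 36 of the genes (rows) on each of the 7 arrays (columns) minus the mean of the 3 wild type arrays, in red above and in blue below it, with black lines between the groups by role. The colour scale ends at 2, which Bnip3 in Mutant_175 and Gabarapl2 in Mutant_188 exceed. Pink1, Rhot2, Chchd3, Ulk1, Map1lc3a and Ctsd are blue on all 4 knockout arrays, and the column of Mutant_175 is redder than the other knockouts in most rows.

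The start of autophagy is set by the kinases ULK1 and ULK2 with their partner ATG13, and by the lipid kinase complex of Beclin 1. Ulk1 read 47.8, 46.6 and 47.5 in wild type and 25.3, 19.7, 18.9 and 20.4 in knockout (chromosome 5, 111213514 to 111213573, mm9). The wild type arrays were within an SD of 0.02 on the log2 scale, and Ulk1 fell by 1.17 (SE 0.13, adjusted p = 0.00047, limma), a 2.26-fold change. Ulk2 read 4.46, 4.96 and 4.64 in wild type and 4.44, 4.14, 4.38 and 4.10 in knockout. Those groups met almost without a gap, and the mean difference of -0.14 (SE 0.10, adjusted p = 0.32, limma) was not called. Atg13 read 22.7, 24.4 and 21.2 in wild type and 28.5, 20.2, 13.2 and 15.01 in knockout, with Mutant_175 above every wild type array and the other 3 knockouts below. It was not called at -0.31 (SE 0.26, adjusted p = 0.37, limma), and without Mutant_175 it was called lower at -0.52 (adjusted p = 0.047, limma). Becn1 read 1.78, 1.95 and 1.83 in wild type and 2.87, 1.88, 2.82 and 2.13 in knockout. Its mean log2 difference of 0.36 (SE 0.18, adjusted p = 0.13, limma) was not called, but it was 0.93 scaled to spike-in RNA (adjusted p = 0.0096, limma).

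The conjugation enzymes attach Atg8 proteins to lipid. ATG7 activates them, ATG3 transfers them, and the ATG12 and ATG5 conjugate directs the transfer to the membrane. Atg5 read 5.46, 5.33 and 5.22 in wild type and 3.46, 3.13, 4.16 and 3.98 in knockout, without overlap. It fell by 0.54 (SE 0.13, adjusted p = 0.013, limma), a call lost without Wild Type_181, and stood at 0.02 scaled to spike-in RNA. Atg7 went the other way, with 2.89, 2.59 and 2.49 in wild type and 3.50, 3.81, 3.40 and 3.04 in knockout. Its rise of 0.37 (SE 0.12, adjusted p = 0.043, limma) is close to the threshold. The Atg7 call was lost without any 1 array other than Mutant_188, when arrays were scaled to their median, when dim probes were kept and with the mean over its probes, with adjusted p up to 0.15 over all alternatives, and its second probe gave 0.21. Atg3 and Atg12 were not called, at -0.21 (SE 0.18) and -0.24 (SE 0.15), with groups that overlapped.

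The Atg8 family showed the widest split. These small ubiquitin-like proteins form the LC3 branch (Map1lc3a, Map1lc3b) and the GABARAP branch (Gabarap, Gabarapl1, Gabarapl2). Gabarapl2 (GATE-16) read 45.1, 45.1 and 42.9 in wild type and 139, 147, 165 and 197 in knockout (chromosome 8, 114476724 to 114476783, mm9). Every knockout array was far above every wild type array, and the rise of 1.85 (SE 0.14, adjusted p = 0.00011, limma) was a 3.62-fold change. A second bright probe gave 2.35 and a dimmer one 0.80, both called higher. Gabarap read 55.1, 59.2 and 58.7 in wild type and 80.4, 72.1, 78.2 and 82.5 in knockout. It rose by 0.44 (SE 0.10, adjusted p = 0.012, limma) without overlap, and without Wild Type_181 its adjusted p was 0.058. Map1lc3a read 48.6, 47.9 and 49.4 in wild type and 25.1, 19.2, 23.6 and 22.8 in knockout (chromosome 2, 155103435 to 155103494, mm9). On all 7 arrays it was the only gene of the family called lower, by 1.11 (SE 0.12, adjusted p = 0.00049, limma), a 2.15-fold change. Map1lc3b, the usual marker of autophagosomes, read 119, 133 and 117 in wild type and 154, 94.5, 91.6 and 109 in knockout. Gabarapl1 read 87.5, 88.5 and 83.5 in wild type and 116, 52.2, 48.8 and 67.3 in knockout. In both genes Mutant_175 was above all wild type arrays and the other 3 knockouts were below, and neither was called, at -0.16 (SE 0.19, adjusted p = 0.53, limma) and -0.37 (SE 0.29, adjusted p = 0.34, limma). Without Mutant_175 Gabarapl1 was called lower at -0.64 (adjusted p = 0.011, limma).

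**Figure D3:**
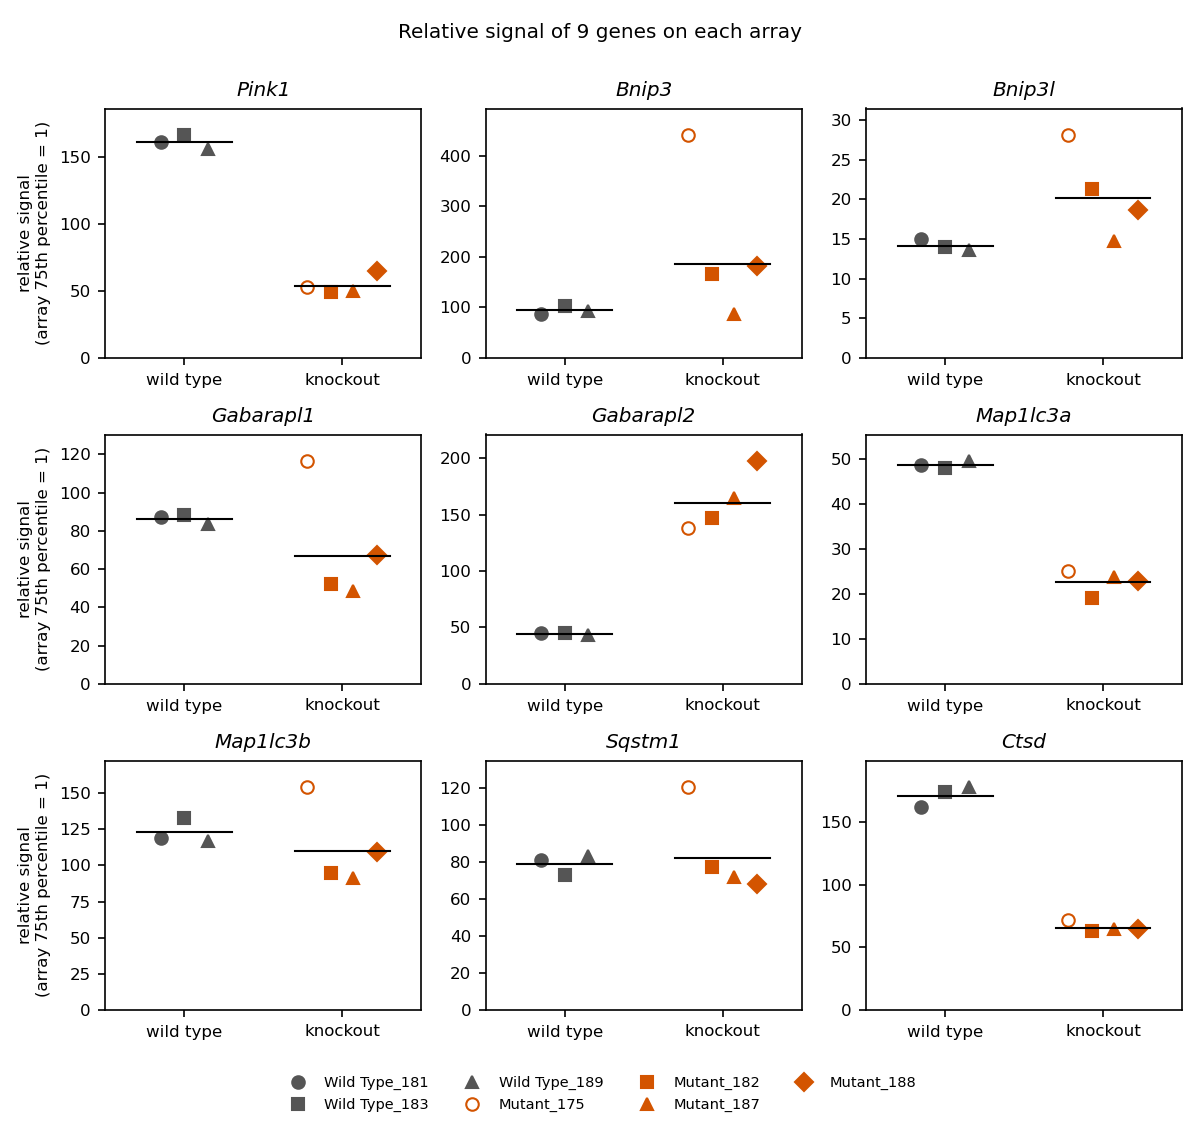
Relative signal of 9 genes on each array (vertical axes, linear from 0, array 75th percentile equal to 1), with 3 wild type arrays in grey, 4 knockout arrays in orange and the mean of the log2 values as a line. Pink1, Map1lc3a and Ctsd are lower and Gabarapl2 is higher on every knockout array. Bnip3, Bnip3l, Gabarapl1, Map1lc3b and Sqstm1 are highest in Mutant_175 (open circle).

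A ratio of 2 genes within an array is free of the scaling, so the split between relatives was also read that way, in 16 pairs set after the values were seen and without a test. The log2 ratio of Gabarapl2 over Gabarap was 1.41 ± 0.20 (SD, n = 4) above the wild type mean in knockout, where the wild type SD was 0.08 (n = 3). Gabarapl2 over Map1lc3a was 2.96 ± 0.27 above the wild type mean in knockout, between 2.60 and 3.24 on the 4 arrays. Map1lc3b over Map1lc3a was higher by 0.94 ± 0.27, from 0.62 to 1.28. Rhot2 over Rhot1 was lower, at -0.97 ± 0.09, and Ulk1 over Ulk2 at -1.04 ± 0.17. Vdac1 was lower relative to Vdac2, at -0.56 ± 0.11, and to Vdac3, at -0.44 ± 0.13. In these 7 pairs, and in 12 of all 16, the knockout and wild type arrays did not overlap. These ratios are the same whichever factor scales an array. Because the pairs were set after the values were seen, they describe the split and do not test it. The share without overlap over other pairs of genes was not counted. The ratios of Bnip3 over Bnip3l, Vdac2 over Vdac3, Gabarap over Gabarapl1 and Gabarapl1 over Map1lc3b overlapped between the groups. For Bnip3 over Bnip3l the knockouts ran from -0.15 in Mutant_187 to 1.24 in Mutant_175.

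**Figure D4:**
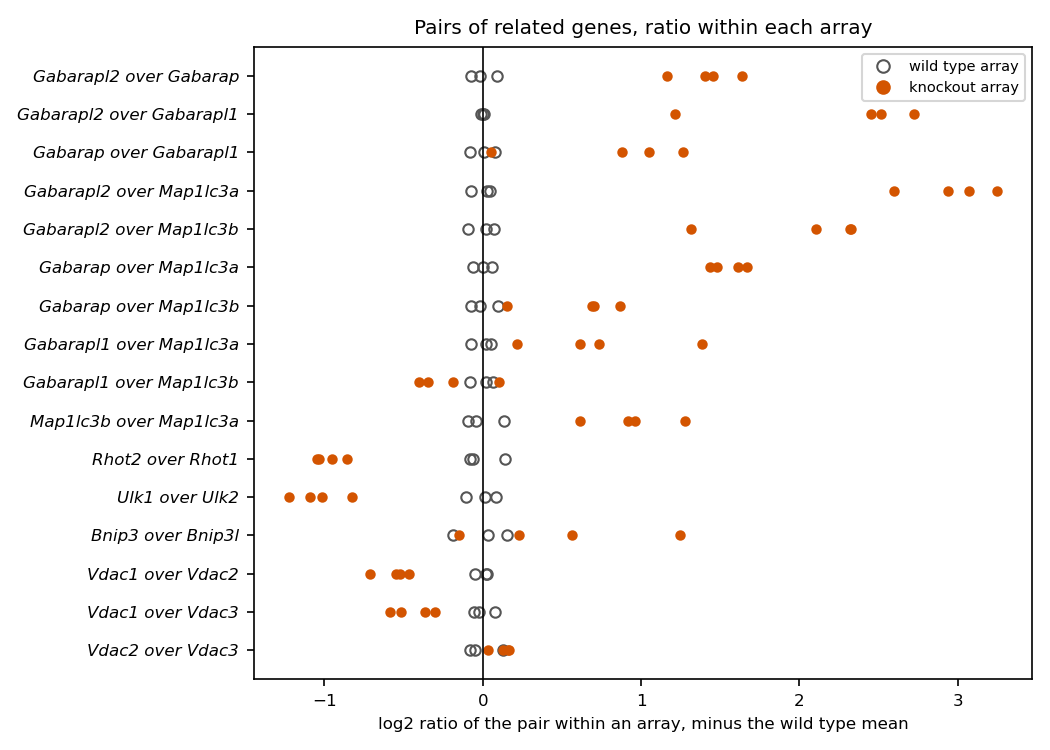
Log2 ratio of 16 pairs of related genes within each array, minus the wild type mean (horizontal axis), with open circles for the 3 wild type arrays and filled circles for the 4 knockout arrays. Gabarapl2 over Map1lc3a lies between 2.60 and 3.24 in knockout, Rhot2 over Rhot1 between -1.04 and -0.86, and the circles of Vdac2 over Vdac3 overlap.

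None of the 3 adaptor genes was called. Sqstm1 (p62, which ties ubiquitin-marked cargo to Atg8 proteins) read 80.9, 73.2 and 83.0 in wild type and 120.5, 77.5, 72.1 and 68.2 in knockout, again with Mutant_175 alone above the wild type range. Its log2 fold change was 0.06 (SE 0.21, adjusted p = 0.84, limma). Optn (optineurin, an adaptor for ubiquitin-marked mitochondria) read 7.38, 7.35 and 6.87 in wild type and 9.25, 7.53, 7.83 and 8.52 in knockout. Optineurin signal was higher on every knockout array by a small margin, at 0.20 (SE 0.12, adjusted p = 0.20, limma), and was called higher at 0.76 scaled to spike-in RNA (adjusted p = 0.0080, limma). Quantile normalization, with or without normexp, called Optn higher too. Tbk1, the kinase that activates optineurin, gave -0.17 (SE 0.16, adjusted p = 0.45, limma).

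At the lysosome, Ctsd stood apart from the other members. Ctsd encodes cathepsin D, an aspartic protease of the lysosome. It read 162, 174 and 178 in wild type and 72.0, 62.7, 64.5 and 64.7 in knockout (chromosome 7, 149561962 to 149562021, mm9). The knockout arrays were close together, and Ctsd fell by 1.38 (SE 0.11, adjusted p = 0.00011, limma), a 2.60-fold change that was 0.81 on the log2 scale with spike-in scaling and still called (-0.81, adjusted p = 0.0068, limma). Tfeb, the transcription factor that drives lysosome and autophagy genes, read 1.47, 1.37 and 1.62 in wild type and 1.03, 1.08, 1.01 and 0.994 in knockout. It fell by 0.53 (SE 0.11, adjusted p = 0.0067, limma) without overlap. Its other 3 probes gave -0.23, -0.29 and -0.23 and were not called, the call was lost with the mean over its probes, and the value was 0.04 scaled to spike-in RNA. The cysteine proteases cathepsin B and L and the membrane proteins Lamp1 and Lamp2 were not called. Ctsb read 132 to 137 in wild type and 113 to 126 in knockout, at -0.19 (SE 0.10). Ctsl gave -0.23 (SE 0.20), Lamp1 -0.17 (SE 0.10) and Lamp2 -0.13 (SE 0.12), each with overlapping groups.

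The probes of a gene mostly pointed the same way. The 37 genes had 78 probes, of which 73 were kept, and 21 genes had more than 1 kept probe. Of the 36 kept probes beyond the brightest, 30 had the sign of the brightest probe and 12 were called, all 12 with that sign. For the called genes, 17 of 18 such probes had the same sign and 10 were called. The same shares over the probes of all other genes were not counted.

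The knockout arrays differed from each other more than the wild type arrays did. The knockout SD was larger than the wild type SD in 34 of the 37 genes, or 91.9%, against 79.6% of all genes with a value on every array. Mutant_175 was the highest knockout array for 28 of the 37 genes (75.7%) and the lowest for 1, which was Gabarapl2. Over all genes it was the highest for 36.3% and the lowest for 30.8%. The median shift of the 37 genes from the wild type mean was -0.04 in Mutant_175 and -0.46, -0.43 and -0.26 in the other knockouts, where all genes gave -0.10, -0.15, -0.17 and -0.09. Mutant_175 also had the lowest Smarca4 signal and the lowest summed macrophage signal among the knockouts. It was the only array at position 1 of a slide row and had the smallest share of spots well above background, 58.1%. The part of these in its values was not tested.

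Other genes of the same pathways were read from lists set without regard to how they moved, although earlier results of these data were known. Of 31 other autophagy genes 1 was called higher and 7 lower, with a median of -0.19. The shares of 3.23% higher and 22.6% lower were both under those of all genes, 16.4% and 25.8%. Atg16l1, the partner of the ATG12 and ATG5 conjugate, fell by 0.74 (SE 0.10, adjusted p = 0.0012, limma), and Atg4b, a protease that trims Atg8 proteins, fell by 0.80 (SE 0.11, adjusted p = 0.0013, limma). Scaled to spike-in RNA neither was called, at -0.17 for Atg16l1 (adjusted p = 0.46, limma) and -0.23 for Atg4b (adjusted p = 0.33, limma). Vamp8, a SNARE protein of autophagosome and lysosome fusion, rose by 1.03 (SE 0.14, adjusted p = 0.0014, limma). On the spike-in scale the list's median was 0.38, with 7 of the 31 genes called higher and 0 lower. Both shares were under those of all genes on that scale, 37.3% higher and 7.45% lower. Of 14 measured genes of other selective autophagy receptors and their partners, 1 was called higher and 5 lower, with a median of -0.24 that was 0.33 scaled to spike-in RNA. The share called, 42.9%, was near the 42.2% of all genes. Calcoco1, a receptor for autophagy of the endoplasmic reticulum, fell by 1.18 (SE 0.18, adjusted p = 0.0018, limma). Stub1, a ubiquitin ligase of chaperone-assisted clearance, fell by 0.67, and Hspb8, a small heat shock protein of the same route, by 0.64. Neither was called when scaled to spike-in RNA, at -0.11 for Stub1 (adjusted p = 0.69, limma) and -0.07 for Hspb8 (adjusted p = 0.74, limma).

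Lysosomal hydrolases other than the members pointed up. Of 36 measured, 15 were called higher and 5 lower, or 41.7% and 13.9% against 16.4% and 25.8% of all genes, with a median of 0.27. Scaled to spike-in RNA the median was 0.84 against 0.44 for all genes, with 21 called higher and 1 lower. With that scaling 37.3% of all genes were called higher and 7.45% lower. Naglu, which degrades heparan sulfate, rose by 1.28 (SE 0.15, adjusted p = 0.00052, limma), while Ppt1, a palmitoyl thioesterase, fell by 1.37 (SE 0.15, adjusted p = 0.00039, limma). The median shift of the hydrolases was 0.25, 0.41, 0.42 and 0.22 on the knockout arrays. Without Wild Type_183 the number called higher was 9. The summed marker signals of macrophages and fibroblasts were higher in knockout too, with the values given above. That of smooth muscle cells and pericytes was also higher, but mostly through Acta2 alone. The part of these cell types in the hydrolase values was not tested.

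Of 22 other genes of the lysosomal membrane and its cofactors, 5 were called higher and 9 lower, or 22.7% and 40.9% against 16.4% and 25.8% of all genes. The median was -0.18, and scaled to spike-in RNA it was 0.39, with 9 called higher and 2 lower. With spike-in scaling 37.3% of all genes were called higher and 7.45% lower. Npc2, which carries cholesterol out of the lysosome, rose by 0.92 (SE 0.10, adjusted p = 0.00040, limma), and the membrane protein gene Cd63 rose by 1.31 (SE 0.16, adjusted p = 0.00076, limma). Lamtor4, of the Ragulator complex that anchors the mTORC1 pathway at the lysosome, fell by 0.82 (SE 0.10, adjusted p = 0.00081, limma), and was not called at -0.26 when scaled to spike-in RNA (adjusted p = 0.27, limma). Of 18 measured subunits of the V-ATPase, the proton pump that acidifies the lysosome, 3 were called higher and 1 lower, with a median of -0.04 that was 0.53 scaled to spike-in RNA. The share called higher, 16.7%, was near the 16.4% of all genes, and the share called lower, 5.56%, was under their 25.8%. Atp6v0a2 fell by 0.82 (SE 0.14, adjusted p = 0.0033, limma), a call that ended at -0.26 scaled to spike-in RNA (adjusted p = 0.36, limma). Atp6v1g2 rose by 0.86 (SE 0.24, adjusted p = 0.022, limma) and Atp6ap2 rose by 0.36. The number of subunits called higher was 1 without Wild Type_181, Wild Type_183 or Mutant_188 and 0 without Wild Type_189. Scaled to spike-in RNA it was 8 of the 18, where 37.3% of all genes were called higher.

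**Figure D5:**
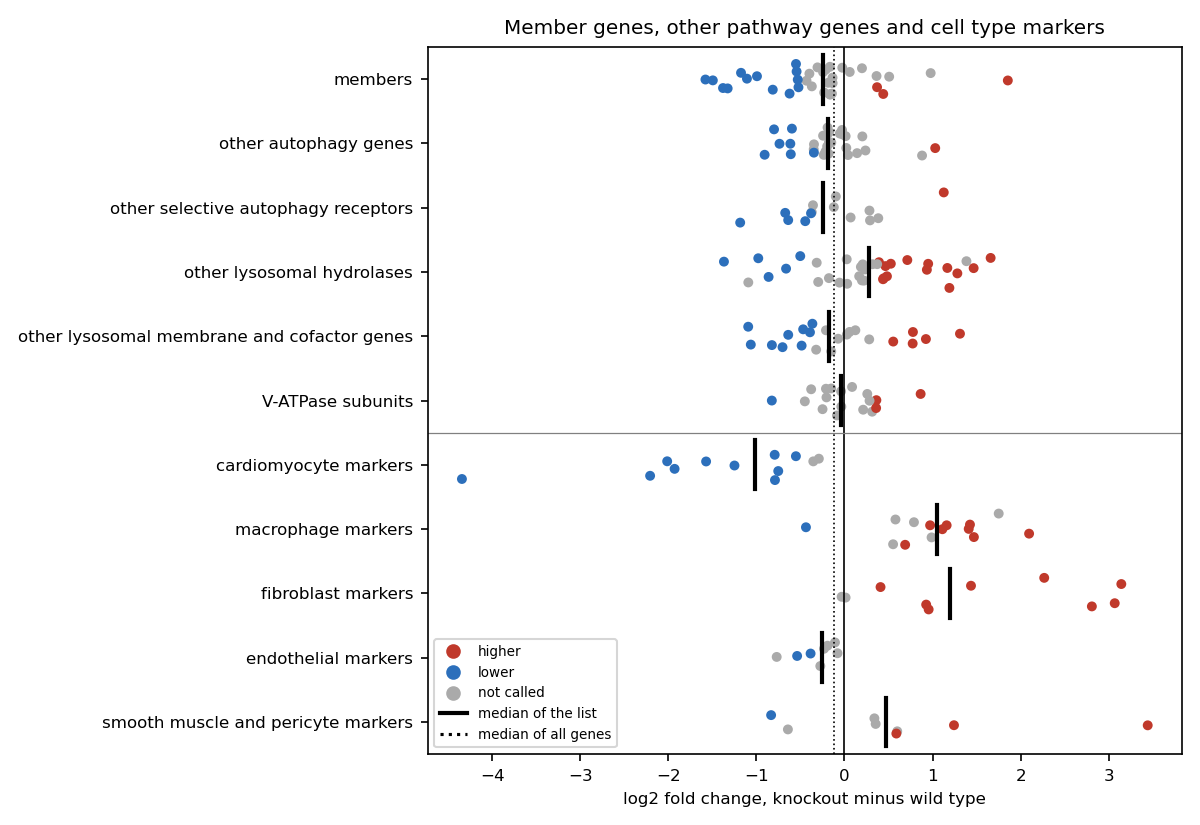
Log2 fold change (horizontal axis) of the measured genes of the members (36 shown), 5 other pathway lists (35 hydrolases shown) and 5 lists of cell type markers, coloured by call at an adjusted p under 0.05 (limma), with the median of each list as a bar and the median of all genes (-0.12) as a dotted line. The median bar of the other lysosomal hydrolases lies at 0.27 and that of the members at -0.24, while the cardiomyocyte markers lie at -1.02 and the macrophage and fibroblast markers at 1.05 and 1.20.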

How the data were processed

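Per the file headers, spots were quantified by Agilent Feature Extraction 10.7.3.1, and probe positions are on build mm9. The authors deposited, for each array, a processed spot intensity (linear, background removed) and 0 or 1 flags for spots well above background, saturated (0 here) or outlying (other columns per the file headers). Their deposited value table holds the same signal: 99.6% of its cells lay within 0.01 (log2). Its column medians were 47.2, 45.6, 50.4, 65.0, 82.6, 80.3 and 60.8, and the scale is linear and uncentred.

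Outlying spots (82 to 146 per array of 59305) were left out and spots of a probe averaged. The log2 signal minus the array's 75th percentile was used (percentiles 955 to 1708). The 34481 of 56605 probes that 3 or more arrays marked as well above background were kept. The gene is the file's name, on its kept probe with the highest mean. Accessions matched all 37 used probes to a gene table of assembly GRCm38.p6, 36 under the same symbol. Exonic or UTR positions were not assigned, since an mm9 annotation was not used here.

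Genes were fitted with limma 3.58.1 (lmFit and eBayes, all 7 arrays, no covariate) in R 4.3.3, with Benjamini-Hochberg adjustment over 22839 genes. Of these genes 30 had a missing value, and no member did. Arrays share 1 slide scan. The fit was tested on simulated data. The members, lists and alternatives were chosen with earlier results of these data known. The number of arrays limits the precision. The text names the members, and from each other list up to 3 called genes with the smallest p, except that 1 member and 1 hydrolase are counted but not reported here by name.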

Additional observations from a re-analysis of the deposited data

Results flagged for a closer look

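Each of the 37 genes was tested for a knockout array far from the other 3, where chance marks about 1 gene in 20. Fundc1 stood out in Mutant_188, with a log2 relative signal of 2.09 against 1.77 to 1.82 in the other knockouts. Rhot1 stood out in Mutant_175, at 3.36 against 2.996 to 3.03. Both values remained below all wild type arrays. The number of genes that stood out was near the number that chance would mark.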

How the results depend on the processing

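Of the 16 calls, 7 were the same under all 19 alternatives and 10 under all but spike-in scaling. Scaled to spike-in RNA, 8513 of all genes were called higher and 1702 lower, 7 members higher and 6 lower, and the members' median was 0.32. The signs of Vdac3 (0.016), Rhot1 (0.044), Atg5 (0.022) and Tfeb (0.036) turned on that scale, where none of these 4 was called. Quantile normalization, normexp with quantile normalization and array weights each called 5 members higher. Leaving out 1 array gave 1 to 4 members called higher, 11 to 17 lower and medians of -0.37 to -0.18, and over all genes 2644 to 4503 higher and 4055 to 6748 lower. The lowest of these counts, 1 member higher (Gabarapl2), came without Wild Type_181. Calls were 38.8% higher with the 75th percentile (3735 against 5900), 49.5% with that percentile taken only over probes detected on every array (4609 against 4706) and 83.3% with spike-in scaling. No paired analysis was possible because the groups share no replicate number. Arrays have no read depth, and signal near background limits only dim probes: all 37 probes used were well above background on all 7 arrays.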
